A study of Homo sapiens with 6 samples.

Results

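The 3 NR4A receptor genes, 4 immediate early response (IER) genes and ARC were followed in HEK293T, a cell line long established from human embryonic kidney. The 8 genes were taken by name from the deposited table of 63643 genes, and all 8 were among the 23109 genes with enough counts to be tested. Every library came from cells deleted for GLO1, the glyoxalase that begins the clearance of methylglyoxal (MGO), a reactive by-product of glycolysis. The 3 MGO libraries came from cells exposed to 60 µM MGO for 4 h, and the 3 Control libraries from untreated cells, for which the labels name no vehicle. The dose is that of the treatment protocol; the names of the MGO libraries carry the code GLO025, which the labels do not explain. The study asked whether MGO sets off the transcription of the integrated stress response in these cells. The labels do not say whether the deleted line is 1 clone or whether replicates were separate cultures. The p-values therefore weigh the difference between groups only against the spread between these libraries, and that spread may be technical.

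NR4A1, NR4A2 and NR4A3 encode orphan nuclear receptors. Their ligand-binding domains have no open pocket for a ligand, so their activity is set largely by how much protein is made. Their genes, like IER2, IER3, IER5, IER5L and ARC, belong to the immediate early class: signals that pass through MAP kinases, cAMP or calcium switch them on through factors already present in the cell, such as CREB, SRF and MEF2, and their messenger RNAs are short-lived. IER2, IER5 and IER5L share a related amino-terminal domain, whereas IER3 is unrelated to them in sequence. ARC encodes a neuronal protein, derived from a retrotransposon Gag protein, that acts at synapses.

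Promoter windows are shown because these genes changed in the same direction, and they let the letters upstream of them be compared. RefSeq (GRCh38.p14, the assembly that hg38 names) gave a window from 250 bases before to 50 after a transcript start for 5 of the 8 genes, NR4A1, NR4A3, IER2, IER5 and IER5L. The windows printed here lie at chr9:99821635-99821934 (plus strand, NR4A3), chr19:13150161-13150460 (plus strand, IER2), chr1:181088450-181088749 (plus strand, IER5) and chr9:129178212-129178511 (minus strand, IER5L). Both strands were searched for TGACG, the core of the CREB element, for its full palindrome TGACGTCA, for the AP-1 element TGANTCA, for the heat shock type repeat GAANNTTC, for TATAA and for the CArG box of SRF. Capitals mark the matches, written 5′ to 3′ on the strand of the gene, so that a TGACG on the opposite strand reads CGTCA.
NR4A3: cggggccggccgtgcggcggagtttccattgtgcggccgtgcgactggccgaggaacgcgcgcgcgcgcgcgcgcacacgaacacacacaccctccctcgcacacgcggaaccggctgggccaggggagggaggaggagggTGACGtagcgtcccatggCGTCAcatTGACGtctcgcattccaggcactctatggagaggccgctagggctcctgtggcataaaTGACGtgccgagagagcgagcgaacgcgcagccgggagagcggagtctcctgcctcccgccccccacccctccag
IER2: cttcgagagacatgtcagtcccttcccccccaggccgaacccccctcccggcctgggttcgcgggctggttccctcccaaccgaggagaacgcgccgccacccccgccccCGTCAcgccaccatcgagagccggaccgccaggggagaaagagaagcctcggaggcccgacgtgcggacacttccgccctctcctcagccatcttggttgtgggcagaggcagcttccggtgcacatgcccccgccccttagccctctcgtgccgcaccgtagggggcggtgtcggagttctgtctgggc
IER5: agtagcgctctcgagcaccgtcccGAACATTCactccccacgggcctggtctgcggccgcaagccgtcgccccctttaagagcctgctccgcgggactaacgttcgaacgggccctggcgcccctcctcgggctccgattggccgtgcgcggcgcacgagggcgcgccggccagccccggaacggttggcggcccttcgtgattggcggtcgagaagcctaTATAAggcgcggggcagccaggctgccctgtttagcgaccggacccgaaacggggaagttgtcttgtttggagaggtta
IER5L: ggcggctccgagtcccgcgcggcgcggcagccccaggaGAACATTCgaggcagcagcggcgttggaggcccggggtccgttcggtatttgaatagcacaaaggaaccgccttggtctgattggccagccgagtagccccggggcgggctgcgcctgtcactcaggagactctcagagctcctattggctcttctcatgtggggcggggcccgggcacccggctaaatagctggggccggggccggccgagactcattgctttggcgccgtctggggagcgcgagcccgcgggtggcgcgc

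The NR4A3 window held TGACG 4 times, with first bases 109, 91, 83 and 25 bases before the start, and the match at 91 was on the opposite strand. Of 35116 promoter windows of this length, 24.6% held at least 1 TGACG and 1.4% held 3 or more. IER2 held 1 match, 140 bases before the start. IER5 and IER5L held the same 8 letters, GAACATTC, 226 and 212 bases before their starts; GAANNTTC was found in 6.77% of windows. IER5 also had TATAA 29 bases before its start, a motif found in 20.4% of windows. The 2 windows of NR4A1, at chr12:52022582-52022881 and chr12:52037465-52037764, held none of the motifs. NR4A1 has several starts, any others were not searched, and which start these cells use was not tested. None of the windows of the 5 genes held the longer palindrome TGACGTCA (1.85% of windows; it includes the core), the AP-1 element (7.71%) or the CArG box (1.29%).

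Total counts were 128270160 to 138680220 in MGO and 117427883 to 157639431 in Control libraries. Of the 7 markers fixed for the HEK293 line, PAX2, VIM, NEFL, NEFM, KRT8, KRT18 and CDH2, all had counts in the table. Their summed level was 1996 to 2239 TMM-scaled CPM in MGO and 1041 to 1087 CPM in Control libraries, and 3 of the 7 rose and 4 fell. TMM-scaled CPM divides counts by the library total times a factor for that library. The factor assumes that most genes do not change. The endothelial markers PECAM1 and CDH5 summed to at most 0.0576 CPM, and 4 blood markers to at most 0.80 CPM, in any library. The 4 fibroblast markers summed to 5.19 to 5.77 CPM in MGO and 14.2 to 15.4 CPM in Control libraries, of which COL1A1 made up 4.30 ± 0.444 CPM and 13.9 ± 0.625 CPM. The liver gene ALB had 560 counts in MGO replicate 1 against 5 to 19 in the other libraries, and the myeloid gene LYZ had 74 against 5 to 12. The changes of the 8 genes are therefore also given without MGO replicate 1. GLO1 itself had 97.3 to 106 CPM in MGO and 36.3 to 37.9 CPM in Control libraries; these counts do not check the deletion, whose position the labels leave unstated.

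All 8 genes were higher after MGO. Each passed an adjusted p of 0.05 in edgeR's quasi-likelihood test, as did 79.3% of all genes tested, 38.8% as raised and 40.5% as lowered. All 8 rose by a log2 fold change of at least 1, a call made for 20.9% of genes tested, and 4 by at least 2 (4.44% of genes tested): IER2, NR4A2, NR4A3 and ARC. For each of the 8, all 3 MGO libraries lay above all 3 Control libraries, as they did for 39.7% of genes tested; the groups were apart in either direction for 81.5%. The median log2 fold change was 2.01 over the 8 genes and −0.02 over all genes tested, of which the central 90% lay between −2.70 and 1.92. The 8 genes were chosen with earlier results of these data known, so these counts and medians only describe them. Bulk RNA does not tell a change in every cell from a larger change in some of them. Levels are TMM-scaled CPM, and log2 fold changes are MGO over Control.

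**Figure D1:**
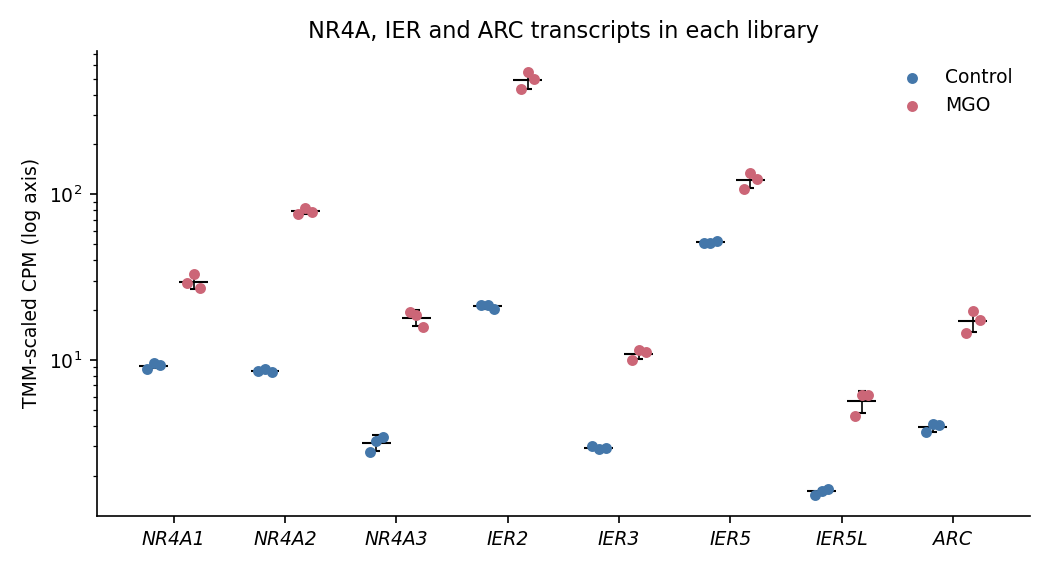
TMM-scaled CPM on a log axis for each of the 8 genes, with 1 point per library (Control blue, MGO red), the mean as a line and the SD as a bar (n = 3). The MGO points lie above the Control points for every gene, with the widest gap for IER2, from 20.3 to 21.6 CPM in Control to 432 to 547 CPM in MGO.

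NR4A2 showed the largest rise of the receptors under TMM scaling, but not with the trend on length, span and GC content removed, where its log2 fold change was 2.92 and that of NR4A3 3.24. It is the family member best known for the development and upkeep of dopamine neurons. NR4A2 (chromosome 2, 156324432 to 156342348, minus strand) had 8.59, 8.78 and 8.46 CPM in Control replicates 1 to 3 and 76.0, 83.0 and 78.4 CPM in MGO replicates 1 to 3. The groups were far apart, with the lowest MGO library at 8.66 times the highest Control library. The log2 fold change was 3.20 (SE 0.07; edgeR adjusted p = 9.43e-12), a 9.19-fold rise that ranked 209 of the 23109 genes tested.

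NR4A3 (chromosome 9, 99821855 to 99866891, plus strand) encodes the receptor whose fusion with EWSR1 marks extraskeletal myxoid chondrosarcoma. It had 2.79, 3.25 and 3.44 CPM in Control and 19.5, 18.7 and 15.9 CPM in MGO libraries. Its replicates spread by about the same share of the mean in both groups, with a coefficient of variation of 10.7% in Control and 10.6% in MGO, and they did not overlap. The log2 fold change was 2.51 (SE 0.10; edgeR adjusted p = 4.64e-10).

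NR4A1 (chromosome 12, 52022832 to 52059507, plus strand), a receptor known for its part in the death of immature T cells and in steroid-producing cells, rose least of the 3. Control libraries had 8.86, 9.53 and 9.29 CPM and MGO libraries 29.1, 32.8 and 27.2 CPM. The groups did not overlap, and the log2 fold change was 1.69 (SE 0.08; edgeR adjusted p = 1.43e-09), a 3.22-fold rise. A noncoding gene on the opposite strand, AC025259.3, shares 754 exonic bases with NR4A1 and had 96 counts over all libraries beside 14704 for NR4A1.

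The makeup of the family differed between the groups. Per length (counts divided by the median length of a gene's transcripts), NR4A1 took 46.8, 47.5 and 47.4% of the NR4A total in Control libraries and 25.3, 26.2 and 24.0% in MGO libraries. NR4A2 took 44.5, 42.9 and 42.3% in Control and 64.7, 65.0 and 67.8% in MGO libraries. In Control cells the 2 receptors were thus near parity, and in MGO cells NR4A2 was the most abundant in each library. NR4A3 took 8.69 to 10.4% in Control and 8.26 to 10.0% in MGO libraries, which overlapped. These shares were not corrected for the trend on length, span and GC content. With that trend removed, NR4A3 had the largest log2 fold change of the 3, 3.24 against 2.92 for NR4A2 and 1.68 for NR4A1.

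The log2 ratio of NR4A1 to NR4A2, a quantity that does not depend on scaling between libraries, was 0.13 ± 0.05 (SD, n = 3) in Control and −1.39 ± 0.10 in MGO. The difference was −1.52, or −1.24 with the trend on length, span and GC content removed. Each difference of ratios with that trend removed was chosen after seeing the data. The 2 groups did not overlap, and a two-sided exact permutation test gave p = 0.1, the smallest value that 3 against 3 libraries allow, so neither this nor any other ratio could pass the threshold. The same p and the same adjusted p (0.1 over 6 pairs) were obtained for each pair below. NR4A1 fell relative to NR4A3 by a difference of −0.83 in the log2 ratio (−1.56 with that trend removed), and NR4A2 gained on NR4A3 by 0.69. The direction of the last pair depended on the fit: once each library's trend on length, span and GC content of the genes was removed, the difference was −0.33, a comparison chosen after seeing the data.

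**Figure D2:**
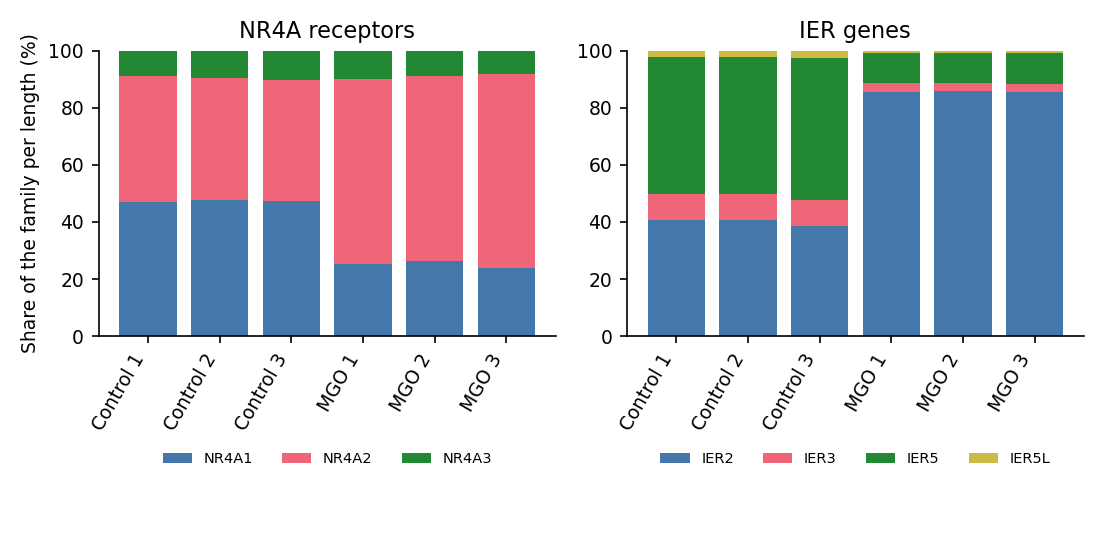
Share of each gene in the per-length total of its family, in percent, in each of the 6 libraries, for the NR4A receptors (left) and the IER genes (right). NR4A2 makes up 42.3 to 44.5% of the receptors in Control and 64.7 to 67.8% in MGO libraries, and IER2 makes up 38.7 to 40.9% of the IER genes in Control and 85.4 to 85.8% in MGO libraries.

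IER2 had the largest change of the 8 genes. It encodes a small nuclear protein made within minutes of growth factor stimulation. IER2 (chromosome 19, 13150415 to 13154908, plus strand) had 21.4, 21.6 and 20.3 CPM in Control and 432, 547 and 494 CPM in MGO libraries. IER2 shares 756 exonic bases with the antisense gene AC011446.2, which had 0 counts over all libraries beside 176661 for IER2. For IER2, every MGO library was at least 20.1 times the highest Control library. The log2 fold change was 4.54 (SE 0.09; edgeR adjusted p = 9.28e-12), a 23.3-fold rise that ranked 36 of 23109.

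IER5 rose least of the 8 under TMM scaling; with the trend removed IER3 was lowest, at 1.04 against 1.49 for IER5. It encodes a partner of the heat shock factor HSF1 and of the phosphatase PP2A. IER5 (chromosome 1, 181088712 to 181092899, plus strand, a single exon) had the highest Control level of the IER genes, at 50.7, 50.9 and 52.6 CPM, and reached 108, 135 and 124 CPM in MGO libraries. The groups did not overlap, with the lowest MGO library at 2.05 times the highest Control library. The log2 fold change was 1.25 (SE 0.08; edgeR adjusted p = 1.82e-08). Because of its high base level its gain, 70.9 CPM, was close in size to the 70.5 CPM of NR4A2, which rose 9.19-fold.

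IER5L (chromosome 9, 129175552 to 129178262, minus strand, a single exon), the close relative of IER5, was the least abundant of the 8 genes in both groups. It had 1.54, 1.62 and 1.66 CPM in Control and 4.61, 6.15 and 6.15 CPM in MGO libraries, with no overlap. IER5L shares 696 exonic bases with the antisense gene AL158151.3, for which no row of the table was matched, and 367 with AL158151.1, which had 3 counts beside 2720 for IER5L. The log2 fold change was 1.81 (SE 0.12; edgeR adjusted p = 3.34e-08). IER3 (chromosome 6, 30743199 to 30744554, minus strand), which encodes a stress-induced membrane protein that modulates ERK signalling and survival, had 3.02, 2.88 and 2.95 CPM in Control and 10.0, 11.5 and 11.2 CPM in MGO libraries. It rose by 1.89 on the log2 scale (SE 0.09; edgeR adjusted p = 8.04e-10), and its groups did not overlap. IER3 lies in the major histocompatibility region, of which the assembly also holds alternate copies; whether the genome used held them is not stated in the labels, so its level is uncertain. Its antisense gene IER3-AS1 shares 359 exonic bases and had 94 counts over all libraries beside 5171 for IER3.

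Within the IER genes, IER2 and IER5 exchanged order. The log2 ratio of IER2 to IER5 per length was −0.23, −0.23 and −0.37 in Control and 3.01 ± 0.01 (SD, n = 3) in MGO libraries, so IER2 lay below IER5 in each Control library and above it in each MGO library. The ratio moved by 3.29, or by 2.49 with the trend removed, and it hardly varied within the MGO group, although the CPM of each gene varied there with a coefficient of variation of 11.7% for IER2 and 11.4% for IER5. The replicates of the 2 genes thus moved in step: both were lowest in MGO replicate 1 and highest in MGO replicate 2. The same held for NR4A2, IER3 and ARC, so it was not particular to this pair. The ratio of IER2 to IER5L moved by 2.73, or 2.44 with the trend removed. That of IER5 to IER5L moved by −0.56, or −0.05 with the trend removed.

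ARC (chromosome 8, 142611044 to 142614472, minus strand), a gene known from active neurons, was counted in every library of this kidney line. It had 3.64, 4.08 and 4.03 CPM in Control and 14.6, 19.7 and 17.4 CPM in MGO libraries. The groups did not overlap, and the log2 fold change was 2.14 (SE 0.11; edgeR adjusted p = 2.11e-09), a 4.40-fold rise. The lowest MGO value was again that of replicate 1.

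Set in order, the changes were 4.54 for IER2, 3.20 for NR4A2, 2.51 for NR4A3, 2.14 for ARC, 1.89 for IER3, 1.81 for IER5L, 1.69 for NR4A1 and 1.25 for IER5. The 95% interval of IER2 (4.33 to 4.75) lay above that of NR4A2 (3.05 to 3.35), which lay above that of NR4A3 (2.28 to 2.74). From NR4A3 to NR4A1 the interval of each gene overlapped that of the next, and the interval of IER5 (1.08 to 1.43) lay below that of NR4A1 (1.51 to 1.86). Without MGO replicate 1 the changes were 4.63 for IER2, 3.23 for NR4A2, 2.45 for NR4A3, 2.25 for ARC, 1.95 for IER3, 1.94 for IER5L, 1.71 for NR4A1 and 1.34 for IER5, each with an edgeR adjusted p of 3.52e-09 or below. The order was the same without that library.

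**Figure D3:**
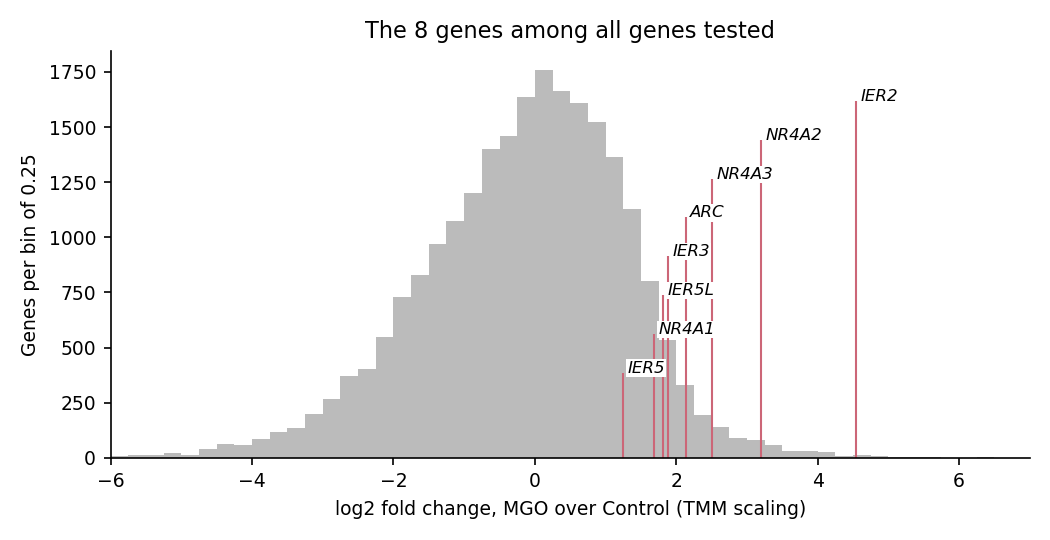
Number of genes per bin of 0.25 in the log2 fold change of MGO over Control, for all 23109 genes tested, with the 8 genes marked by red lines whose height carries no value. IER5 at 1.25 lies within the right shoulder of the distribution and IER2 at 4.54 in its far right tail; 53 genes lie beyond the ends of the axis at −6 and 7.

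Levels per length were ordered in another way. In Control libraries IER5 stood highest with 12.3 ± 0.251 CPM per kb (SD, n = 3), followed by IER2 with 10.1 ± 0.331, NR4A1 with 3.56 ± 0.130, NR4A2 with 3.26 ± 0.0603, IER3 with 2.27 ± 0.0523, ARC with 1.33 ± 0.0812, NR4A3 with 0.72 ± 0.0770 and IER5L with 0.592 ± 0.0229 CPM per kb. No neighbours in this order overlapped. In MGO libraries IER2 led with 236 ± 27.6 CPM per kb, and NR4A2 (30.0 ± 1.34) and IER5 (29.2 ± 3.32) overlapped. They were followed by NR4A1 with 11.5 ± 1.11, IER3 with 8.41 ± 0.593, ARC with 5.85 ± 0.864, NR4A3 with 4.10 ± 0.433 and IER5L with 2.08 ± 0.328 CPM per kb, with no overlap between neighbours. Lengths are those of GENCODE release 29, and the order can change with the transcript that is counted.

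The scaling and the length of transcripts touch these values. TMM scaling assumes that most genes do not change, whereas 79.3% of genes tested passed the threshold. Scaling by library size alone moved the median of all genes by −0.53, and upper quartile scaling moved it by 0.17. Under library size alone the 8 changes lay between 0.72 (IER5) and 4.01 (IER2), all still past the threshold. In that fit 5673 of 23109 genes tested were called raised and 12885 lowered. Across 13890 genes of at least 1 CPM, which share the same 6 libraries, the log2 fold change fell with transcript length (Spearman's rho −0.58, a description across genes). IER3, with 1297 nt the shortest of the 8, changed by 1.04 with the trend on length, span and GC content removed, against 1.89 before. NR4A3, with 4388 nt the longest, changed by 3.24 against 2.51 and then stood above NR4A2 (2.92). IER5, with 4188 nt, changed by 1.49 against 1.25, and IER2, with 2085 nt, by 3.98 against 4.54. All 8 genes were raised past the threshold in that fit, as were 7629 of 21733 genes tested, with 9373 lowered. Its median log2 fold change was −0.11, and the median of each gene's difference from TMM scaling was −0.34. The part of the length trend in these changes was not tested otherwise.

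**Figure D4:**
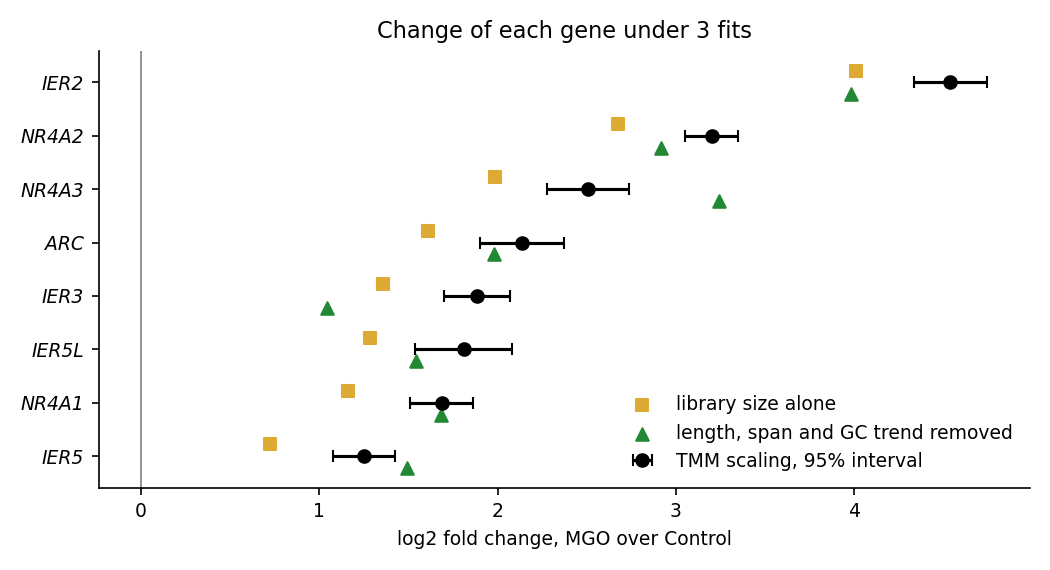
Log2 fold change of MGO over Control for each gene with TMM scaling (black, bars are 95% intervals), with library size alone (squares) and with the trend on length, span and GC content removed (triangles). All points lie above 0, and NR4A3 passes NR4A2 once the trend is removed.

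**Figure D5:**
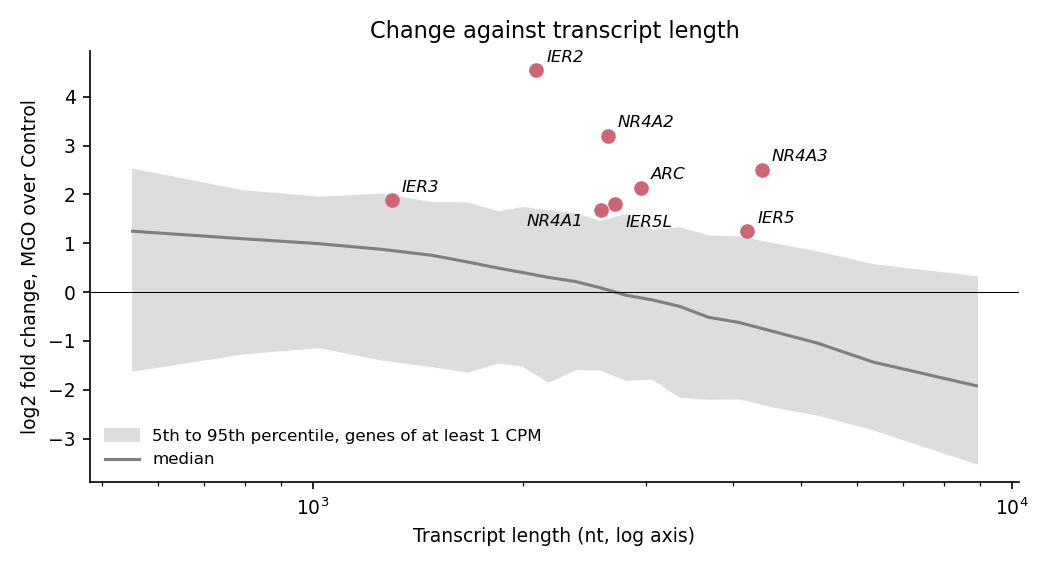
Log2 fold change of MGO over Control against transcript length in nt (log axis). The grey line and band give the median and the 5th to 95th percentile in 20 groups of genes of at least 1 CPM, and the red points are the 8 genes, of which IER3 (1297 nt, 1.89) lies inside the band and IER2 (2085 nt, 4.54) far above it.

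For each gene the profile closest to it was sought among 13384 other named genes whose mean reached 1 CPM, by the root mean square difference over the 6 libraries of log2 CPM, centred on each gene's own mean. The gene closest to IER2 was PPP1R15A, a phosphatase subunit of the integrated stress response, at a difference of 0.10. The closest to NR4A2 was the zinc finger gene ZNF416 (0.05), to ARC the RNA helicase gene DDX28 (0.06) and to NR4A3 the pseudogene UBE2FP1 (0.09). KRT18 was closest to IER3 (0.01), S100A4 to NR4A1 (0.03), SMAGP to IER5 (0.03) and YDJC to IER5L (0.03). With 2 groups of 3 libraries, such likeness mostly reflects a similar size of change.

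MAP kinases, and the RSK and MSK kinases they switch on, pass signals to CREB and SRF. Of 11 tested MAP kinase, RSK and MSK genes, 2 rose and 8 fell (median −1.05), where 38.8% of all genes tested were raised and 40.5% lowered. MAPK3, which encodes ERK1, went from 52.4 ± 0.830 to 112 ± 7.49 CPM (1.09 on the log2 scale, SE 0.07) and MAPK7, which encodes ERK5, rose by 0.65 (SE 0.06). RPS6KA6 and RPS6KA3, both RSK genes, had log2 fold changes of −2.19 and −1.54. With the trend removed, the changes were 0.28 for MAPK3, −0.84 for RPS6KA6 and −0.99 for RPS6KA3, and the list's median was −0.52. The call of MAPK7 ended under library size alone (edgeR adjusted p = 0.0811).

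Among SRF, CREB and MEF2 factors and their cofactors, 5 of 18 tested genes rose (38.8% of all genes tested) and 13 fell (40.5%). The list's median was −0.82. SRF, which drives many immediate early promoters, had 111 ± 9.45 CPM in Control and 239.9 ± 13.8 CPM in MGO libraries (1.11 on the log2 scale, SE 0.08), and its partner gene ELK1 rose by 0.96 (SE 0.07). MRTFB, an actin-regulated SRF coactivator, and ELK3 had changes of −3.48 (SE 0.11) and −2.15 (SE 0.07). With the trend removed, 8 of these genes rose and 9 fell, the median was −0.15, and ELK1 changed by 0.49. MEF2D and HSF1 had 4 and 1 counts over all libraries although most cells use them, so such values are not read as absent expression.

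Of 7 other genes known to respond to cAMP and CREB, 5 rose, 1 fell and 1, the clock gene PER1, did not pass the threshold, with a change of 0.06 (95% interval −0.10 to 0.22; PER1 was named after its value was seen). NFIL3, a leucine zipper repressor, stood at 9.27 ± 0.269 CPM in Control and 34.4 ± 1.40 CPM in MGO libraries (1.89 on the log2 scale, SE 0.07). SIK1, a kinase that feeds back on CREB coactivators, rose by 1.88 (SE 0.13), a level made uncertain by its near-identical copy SIK1B, and PPARGC1A, a coactivator of mitochondrial genes, had a change of −0.85 (SE 0.10). The list's median was 1.09, or 0.34 with the trend removed and 0.56 under library size alone. Its 5 rises among 7 genes stood beside 38.8% of all genes tested, and its 1 fall beside 40.5%. Of 5 genes known as NR4A targets in endocrine cells or neurons, TH had no count in any library, SLC6A3 had 1 and HSD3B2 had 16. POMC was called raised (0.64, SE 0.23, at 0.465 ± 0.0342 CPM in MGO) and SLC18A2 lowered (−2.66, SE 0.17). The POMC call ended without MGO replicate 2, Control replicate 1 or Control replicate 2, where 0 of the 2 tested genes were called raised.

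Nuclear receptors outside the NR4A group changed in both directions. Of 40 tested, 13 rose (38.8% of all genes tested) and 22 fell (40.5%), with a median of −0.37. A rise of at least 1 was called for 3, and for 20.9% of all genes tested. Of these 3, NR1H4 and NR0B1 had means of only 0.178 and 0.154 CPM in MGO libraries. NR1H2, an oxysterol receptor gene, rose from 35.6 ± 0.526 to 78.7 ± 4.26 CPM (1.14, SE 0.06), and the retinoic acid receptor gene RARB rose by 0.98 (SE 0.10), or by 1.49 with the trend removed. PPARA, a fatty acid receptor gene, had a change of −2.39 (SE 0.08), or −0.57 with the trend removed. The count of raised genes was 5 under library size alone, with 26 lowered. With the trend removed, 17 rose and 17 fell and the median was 0.05, so the balance of the list turned on the fit. RXRA, a dimer partner of NR4A1 and NR4A2, stood at 49.8 ± 1.85 CPM in Control and 10.7 ± 0.645 CPM in MGO libraries (log2 fold change −2.22, SE 0.07; it was named after its value was seen).

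Among partners of the IER proteins, 8 of 10 tested genes rose (38.8% of all genes tested) and 2 fell (40.5%). Their median was 0.68. Library size alone put that median at 0.16. MCL1, a survival protein to which IER3 binds, had 296 ± 6.27 CPM in Control and 1010.5 ± 93.9 CPM in MGO libraries (1.77 on the log2 scale, SE 0.08), and PPP2R2A, a B55 subunit of PP2A, rose by 0.97 (SE 0.07). PPP2R2C, another B55 subunit, had a change of −1.31 (SE 0.07), and the scaffold gene PPP2R1B one of −0.23 (SE 0.06), which missed the threshold when scaled by upper quartiles (edgeR adjusted p = 0.422). Of 13 tested gag-derived relatives of ARC, 2 rose and 9 fell (median −0.67), beside the same shares of all genes tested. PEG10, an imprinted placental gene, went from 403 ± 34.8 to 38.6 ± 4.57 CPM (−3.38, SE 0.10), and PNMA8A changed by −1.45 (SE 0.07). PNMA6A rose by 0.60 (SE 0.10), a call that ended under library size alone (edgeR adjusted p = 0.497) and with the trend removed (0.13, edgeR adjusted p = 0.225). RTL8A rose by 0.36 (SE 0.08) but stood at −0.17 under library size alone and at −0.50 with the trend removed, and it has near-identical copies in RTL8B and RTL8C, between which counting may have divided reads.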

How the data were processed

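Polyadenylated RNA was sequenced from 3 MGO and 3 Control libraries. Per the labels' protocols, 500 ng of total RNA went into stranded libraries with 8 PCR cycles, read as 100 bp pairs. The table the authors deposited holds raw read counts for each gene. The submitters' processing notes name the build hg38, STAR 2.7.0a and featureCounts 2.0.6, as well as Trim Galore 0.6.10, FastQC 0.12.0 and DESeq2 1.42.0 and SAMtools 1.19.2. For annotation, strand setting and reads with several matches, the choice was not given in the sources used here.

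These counts went into edgeR 4.0.16 under R 4.3.3 (filterByExpr, TMM, quasi-likelihood test, Benjamini-Hochberg adjustment over all 23109 genes, threshold 0.05). The SE is the size of the log2 fold change over the root of its F statistic. Ratios between genes were tested by exact permutation over libraries. Feature lengths, spans and GC content came from GENCODE release 29 (GRCh38), which 56664 of 63643 rows matched. The trend on these was fitted in each library with splines of 5 degrees of freedom on genes of at least 1 CPM and entered as offsets. Alternatives were other scalings and filters, DESeq2 1.42.0, limma-voom (limma 3.58.1), the trend removal, leaving out each library and a replicate block. The code was tested on simulated data. For fold changes, the simulation left most genes unchanged, whereas 79.3% of genes tested here passed the threshold. That test therefore does not bear on the choice of scaling. No libraries of a group agreed within sampling noise (lowest chi-square over its degrees of freedom 3.51). The 8 genes and the gene lists were chosen with earlier results of these data known. Genes named from a list are, past the threshold and at a mean of at least 1 CPM, the 2 that rose most and the 2 that fell most, unless stated otherwise; 1 such gene is not reported here.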

Additional observations from a re-analysis of the deposited data

How the results depend on the processing

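Each of the 8 genes stayed raised and past the threshold in all 15 alternatives tried for it, with an adjusted p of at most 2.7e-06. Most genes tested passed it too in the scalings examined. Library size alone called 5673 raised and 12885 lowered of 23109, and upper quartile scaling 10124 and 8312. Without 1 library at a time, the log2 fold changes were 1.61 to 1.75 for NR4A1, 3.17 to 3.23 for NR4A2, 2.43 to 2.60 for NR4A3, 4.46 to 4.63 for IER2, 1.86 to 1.95 for IER3, 1.18 to 1.34 for IER5, 1.75 to 1.94 for IER5L and 2.04 to 2.25 for ARC. Under library size alone 2 of the 8 genes rose by at least 2, in place of 4. The same scaling gave 5 raised other nuclear receptors, 1 kinase, 3 SRF, CREB and MEF2 genes, 5 partners of IER proteins, 0 NR4A targets and 0 relatives of ARC, and 2 lowered cAMP and CREB responsive genes. Upper quartile scaling gave 1 lowered partner of IER proteins. With the trend on length, span and GC content removed, 8 SRF, CREB and MEF2 genes, 0 NR4A targets and 1 relative of ARC were raised. Without 1 library at a time, 0 to 1 NR4A targets were raised. The cause of these shifts was not tested. In the same fit 17 other nuclear receptors rose and 17 fell, against 13 and 22. The NR4A2 to NR4A3 ratio reversed with that trend removed, to −0.33, a comparison chosen after seeing the data.

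Replicate numbers did not pair the libraries (correlations of same-numbered deviations from the group means of 0.03, −0.07 and 0.07). The replicate block changed no call, with log2 fold changes of 1.68 for NR4A1 and 4.53 for IER2. Depth was not limiting for these genes: the least abundant, IER5L, had 219 counts in its smallest library.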
